A study of Mus musculus with 48 samples.

Results

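The genes described here are 9 receptors of natural killer (NK) cells, taken by symbol from the counts of the whole-tumor mix of this series, where all 9 were found among 20300 genes. They are Ncr1 (NKp46), Klrb1c (NK1.1), Klrk1 (NKG2D), the Ly49 genes Klra4 (Ly49D), Klra7 (Ly49G) and Klra8 (Ly49H), Klre1, Klrd1 (CD94) and Klrc1 (NKG2A). They were followed across NK cells and across CD8 and CD4 T cells, each gated on markers outside the list, and then across the other cell classes of the tumor.

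NK cells are lymphocytes that carry no rearranged antigen receptor and weigh signals from activating and inhibitory surface receptors before they kill. Activating members such as NKp46, NKG2D, Ly49D and Ly49H signal through adaptor proteins, whereas CD94 paired with NKG2A, and Ly49G, bind class I MHC molecules and restrain the cell. Some of these receptors, NKG2D, CD94 and NKG2A among them, are also carried by activated CD8 T cells, and glioma cells are known to display ligands of NKG2D and the nonclassical MHC molecule that NKG2A reads.

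The tumors grew from GL261, a line of mouse glioma cells, which carried a short hairpin RNA against Selp (shSELP) or a negative-control hairpin (shNC) when they were put into the brains of C57BL/6 mice, which per the paper were 6-week-old males. The labels give day 16 for the collection and the paper's methods day 17, with 3 brains pooled per group. Cells carrying CD11b, CD45+ cells without it and the remaining cells went into the mix in equal amounts, and cell shares describe that mix. Each group has 2 libraries of 8 sequencing entries, and it is not stated whether they came from separate pools of brains, so every p-value here measures spread between these libraries only. Both groups share the host strain, the cell line and the day, and the hairpin is in the tumor cells, not in the lymphocytes studied here. Values for 4 libraries are given in the order shNC 1, shNC 2, shSELP 1 and shSELP 2.

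The libraries held 22945972, 22626413, 17398121 and 25589350 unique molecular identifiers (UMIs, each standing for 1 captured RNA molecule) in 2289, 2297, 2293 and 2293 cells. Median depth per cell was 9015, 7579, 5887 and 9388 UMIs, which makes shSELP 1 the shallowest of the 4. After cells with few genes or many mitochondrial counts were left out, 8726 of 9172 cells were kept. shSELP 1 stood apart from the other 3 libraries, with 352 endothelial-like cells against 22, 32 and 78, and 436 macrophage-like cells against 846, 676 and 740. Across libraries, 5 cell barcodes were shared. Selp itself had 17, 25, 21 and 21 UMIs over all cells, too few to check the knockdown.

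NK cells were taken from lymphoid clusters as cells with 0 UMIs of the CD3 chains, Cd4, Cd8a and Cd8b1 and with a UMI of at least 2 of Gzma, Eomes, Txk, Il2rb, Nkg7 and Prf1. The clusters had been formed without the 9 receptors. The gate held 40, 95, 34 and 56 NK cells with 134417, 440388, 111436 and 341953 UMIs. CD8 T cells numbered 242, 216, 245 and 146, and CD4 T cells 110, 119, 103 and 209. NK cells were also the shallowest of the 3 gates, with median depths of 2625, 3406, 3342.5 and 4993.5 UMIs against 7062, 6441.5, 5015 and 8861.5 in CD8 T cells. Counts below are therefore compared as CPM, the UMIs of a gene summed per library and gate and scaled to the same total.

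The gate was checked against adaptor genes it did not use and against marker lists of T cells, neutrophils, macrophages, dendritic cells and tumor cells. The adaptor gene Fcer1g had a UMI in 100% of NK cells of each library, and Tyrobp, which encodes DAP12, in 96.4% to 100%. The T cell list gave 1168, 1256, 1202 and 1073 CPM in NK cells from 6 of its 10 genes, with Trbc1 most abundant at 595, 683, 601 and 678 CPM and with Cd5 at 0. Cd3d, Cd3e and Cd3g were at 0 because the gate required it. In CD8 T cells, which were gated on a CD3 chain, the same list gave 7713 to 9172 CPM from 10 of 10 genes. Trdc, the constant gene of the T cell receptor delta chain, was at 74.4, 40.9, 26.9 and 43.9 CPM in NK cells and at 1.68 CPM or less in CD8 T cells. The immunoglobulin gene Ighm was at 141, 127, 135 and 169.6 CPM in NK cells. Of the neutrophil list, NK cells held 0 CPM in the first 3 libraries and 2.92 CPM, all of it S100a9, in shSELP 2. The macrophage list gave 1324, 1281, 1229 and 1176 CPM from 5, 7, 6 and 7 of its 9 genes, with Plac8 most abundant at 803, 638, 556 and 549.8 CPM and Mrc1 at 0. The dendritic list gave 171, 70.4, 17.9 and 40.9 CPM from 2 to 5 of 9 genes, with Ccr7 most abundant in the shNC libraries, Zbtb46 most abundant in shSELP 2 and Flt3 and Clec9a at 0. The tumor list gave 14.9, 13.6, 0 and 32.2 CPM from at most 6 of 10 genes. For CD8 T cells the macrophage list gave 1605, 2775, 1662 and 2335 CPM. Their dendritic list gave 223, 132, 58.2 and 66.8 CPM and their tumor list 7.29, 9.52, 8.31 and 14.0 CPM. The part that these transcripts play in the receptor values was not tested.

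Ncr1, Klrb1c and the 3 Ly49 genes were high in NK cells and at or near 0 in both T cell gates, except for Klra7, which had 66 UMIs in CD8 T cells. Ncr1 was measured at 208, 207, 153 and 205 CPM in NK cells and at 0 CPM in CD8 T cells of all 4 libraries. Its level in NK cells averaged 193 ± 27.0 CPM (SD, n = 4). Pooled over libraries, NK cells held 200.4 CPM, at least 462-fold higher than the limit that 0 of 6921891 UMIs allows in CD8 T cells, 0.433 CPM for 3 UMIs over the gate. In CD4 T cells 7 UMIs of Ncr1 were counted, all in a single cell of shSELP 1.

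Klrb1c, whose product is the antigen by which NK cells of this strain are often recognised, was measured at 446, 395, 332 and 316 CPM in NK cells. CD8 T cells gave 1.37, 8.96, 0 and 0 CPM, from 19 UMIs. Pooled over libraries, NK cells held 134 times the CD8 T level (95% counting interval 84.8 to 226). The 4 NK values lay far above every T cell value, and the CD8 T counts all came from the shNC libraries. Of the 19 UMIs, 11 were in CD8 T cells of shNC 2 that lay in the NK-like cluster.

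The Ly49 family is encoded by neighbouring genes whose products each read MHC class I or, for Ly49H, a viral protein. Klra4, an activating member, was measured at 603, 452, 700.0 and 459 CPM in NK cells. The level in CD8 T cells was 0, 0, 0 and 2.01 CPM, from 3 UMIs, so that the pooled ratio was 1156 with an interval of 393 to 5622. Klra8, the other activating member, was measured at 193, 311, 458 and 275 CPM. It also had 3 UMIs in CD8 T cells, and its pooled ratio was 691 (234 to 3369.9). For both genes the NK libraries were high and the T cell libraries were at or near 0, so the ratios are known only within wide limits.

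Klra7, the inhibitory member of the 3, differed from them in CD8 T cells. It was measured at 223, 291, 404 and 313 CPM in NK cells and at 5.46, 23.5, 0.693 and 7.35 CPM in CD8 T cells, from 12, 42, 1 and 11 UMIs. The pooled ratio was 31.6 (24.2 to 41.9). shNC 2 was the highest of the CD8 T libraries and shSELP 1 the lowest, and the 66 UMIs came from 12 of 849 cells. In CD4 T cells Klra7 and Klra8 had 1 UMI each.

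**Figure D1:**
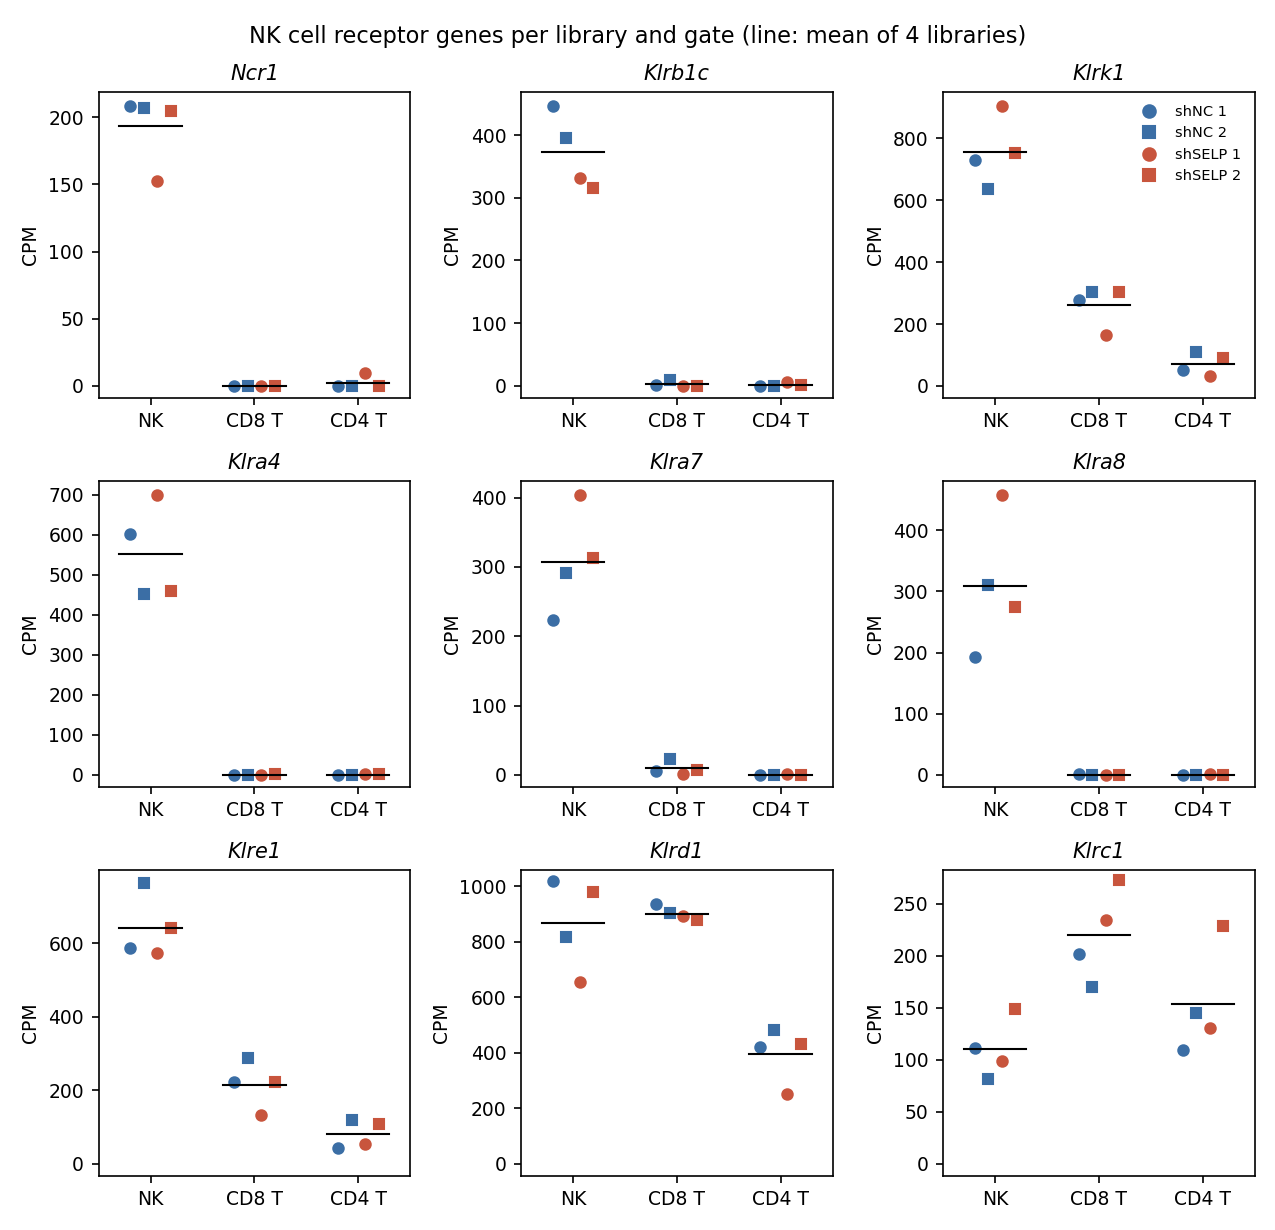
Each panel plots the CPM of 1 receptor in NK, CD8 T and CD4 T cells, with a point per library and a line at the mean of the 4 libraries. Ncr1 lies between 153 and 208 CPM in NK cells and at 0 in CD8 T cells, whereas Klrd1 lies between 655 and 1019 CPM in NK cells and between 877 and 934 CPM in CD8 T cells.

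Klrk1 encodes the activating receptor NKG2D, which binds stress-induced ligands. It was measured at 729, 636, 906 and 754 CPM in NK cells, at 276, 302, 166 and 304 CPM in CD8 T cells and at 50.9, 111, 30.8 and 89.9 CPM in CD4 T cells. The 3 gates did not overlap. NK cells exceeded CD8 T cells by 1.55 on the log2 scale (SE 0.15, adjusted p = 2.32e-08), and CD8 T cells exceeded CD4 T cells by 2.04 (SE 0.16, adjusted p = 4.64e-06), each in 4 of 4 libraries.

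Klre1 encodes a lectin-like receptor that pairs with the products of Klri1 or Klri2. It was measured at 588, 763, 574 and 640.4 CPM in NK cells, 221, 287, 133 and 222 CPM in CD8 T cells and 43.6, 119.7, 54.6 and 108 CPM in CD4 T cells. As for Klrk1, the 3 gates did not overlap. The log2 difference was 1.62 between NK and CD8 T cells (SE 0.13, adjusted p = 6.25e-10) and 1.53 between CD8 and CD4 T cells (SE 0.17, adjusted p = 6.21e-05), each in 4 of 4 libraries. Of its partners, Klri2 was measured at 179, 177, 179 and 140.4 CPM in NK cells and at 15.0, 5.6, 31.2 and 36.8 CPM in CD8 T cells.

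CD94 and NKG2A form 1 inhibitory receptor, yet their genes were spread differently over the gates. Klrd1 was measured at 1019, 817, 655 and 979.7 CPM in NK cells and at 934, 901, 891 and 877 CPM in CD8 T cells. The NK values lay on both sides of the CD8 T values, and the difference, -0.02 on the log2 scale (SE 0.14, adjusted p = 0.954), was smaller than the spread between NK libraries. It was 0.11 without shSELP 1 and -0.65 in the stricter gate (adjusted p = 0.197). CD4 T cells gave 420.1, 481, 250.4 and 431 CPM of Klrd1, below CD8 T cells in 4 of 4 libraries (log2 difference of CD8 over CD4 T cells 1.34, SE 0.14, adjusted p = 3.48e-05).

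Klrc1 was the 1 receptor of the 9 that was lower in NK than in CD8 T cells by the test. It was measured at 112, 81.7, 98.7 and 149 CPM in NK cells, at 201, 169.6, 234 and 273 CPM in CD8 T cells and at 109, 145, 130.1 and 229 CPM in CD4 T cells. The NK value was the lower of the pair with CD8 T cells in 4 of 4 libraries, with a log2 difference of -0.94 (SE 0.16, adjusted p = 1.03e-04). CD8 T cells exceeded CD4 T cells by 0.65 (SE 0.14, adjusted p = 0.00670), also in 4 of 4 libraries. Sequence limits this gene more than the others: of the windows of 91 bases in the last 400 bases of its transcripts, 30.1% are also found in Klrc2, against 0% for 6 of the other receptors, 6.94% for Klrb1c and 7.72% for Klra7.

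Read together by count, edgeR called 7 of the 9 receptors higher and 1 lower in NK than in CD8 T cells, where 10.7% of the 6764 genes tested were called higher and 9.28% lower. DESeq2 called 8 of the 9. Ncr1, Klrb1c, Klra4, Klra7 and Klra8 passed the filter on low counts through NK cells and had to differ, so the count and the median of these 9 describe that choice and support nothing. Between CD8 and CD4 T cells 4 receptors passed the filter and 5 did not, and all 4 (Klrk1, Klre1, Klrd1 and Klrc1) were called higher in CD8 T cells, where 6.89% of 7999 genes were called higher and 8.61% lower. In that comparison 1240 genes were called in either direction, and 782 without shNC 2 or 697 without shSELP 2, while the 4 receptors were called with each library left out. The median log2 difference was 5.01, the value of Klra7, over the 9 receptors in NK against CD8 T cells, also with Ncr1 at its bound (-0.01 over all genes), and 1.43 over the 4 receptors in CD8 against CD4 T cells beside 0.02.

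The adaptors that carry the signals of the activating receptors were divided as well. Tyrobp was measured at 2336, 1703, 2333 and 1883 CPM in NK cells and at 28.2, 24.1, 27.0 and 13.4 CPM in CD8 T cells, a log2 difference of 6.51. Fcer1g was measured at 2768, 2548, 2567 and 2775 CPM in NK cells and at 135, 200.4, 118 and 94.9 CPM in CD8 T cells, a difference of 4.35. Both were higher in NK cells in 4 of 4 libraries. Hcst, which encodes DAP10, the adaptor of NKG2D, was at 684, 522, 781 and 617 CPM in NK cells and 398, 512, 890.1 and 642 CPM in CD8 T cells, and the gates overlapped (log2 difference 0.16, adjusted p = 0.514; -0.06 without shNC 1). Cd247, the zeta chain shared with the T cell receptor, was lower in NK cells by the test with a log2 difference of -0.65 (adjusted p = 0.0204), in 4 of 4 libraries. That call was lost with DESeq2 (-0.70, adjusted p = 0.0878), without shSELP 1 (-0.61, adjusted p = 0.0560) and without shSELP 2 (-0.61, adjusted p = 0.122). It was also lost with cells thinned (-0.42, adjusted p = 0.328) and in the stricter gate (-0.016, adjusted p = 0.993). Over all alternatives the adjusted p of Cd247 ran from 0.00424 to 0.993.

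Of 34 other receptors known from NK cells, 27 were in the counts, 19 passed the filter, 11 were called higher in NK than in CD8 T cells and 5 lower, or 3 lower with DESeq2, without shSELP 1 or without shSELP 2, beside the 10.7% and 9.28% of all genes tested. The 11 became 5 in a stricter gate and 3 with cells thinned to 2000 UMIs, and the 5 became 2 in each. Of the 11, Klrb1a, Klrb1b, Klrb1f, Klra1, Klra9, Klrg1 and Fcgr3 averaged under 5 CPM in CD8 T cells and passed the filter through NK cells, so the count is a description. The shared lymphocyte receptors Cd96 and Havcr2 were among the 5, as was Cd160. The call of Cd96 (log2 difference -1.33) was lost in the stricter gate (-1.61). That of Cd160 (-0.80) was lost with DESeq2 (-0.86), in the stricter gate (-2.01) and without shNC 2 (-0.92), shSELP 1 (-0.69) or shSELP 2 (-0.64). Of 26 regulators and effectors of NK cells, 24 passed the filter, and 13 were called higher in NK cells and 6 lower, beside the same shares of all genes. In the stricter gate these were 7 and 2, and with DESeq2 the 6 became 4. Of the 13, Eomes, Gzma, Il2rb and Prf1 helped to select the NK cells, so their direction was set by the gate and nothing is read from it. Of the other 9, Itga2 and Itgam averaged 1.79 and 2.27 CPM in CD8 T cells and passed the filter through NK cells, so this count is a description too. Tbx21, a transcription factor of NK cells that the gate did not use, was higher in NK cells by 0.92 on the log2 scale, a call lost in the stricter gate (1.16, adjusted p = 0.261). Cxcr6, a chemokine receptor of tissue-resident lymphocytes, was at 0, 11.4, 0 and 8.77 CPM in NK cells and at 384, 283, 433 and 409.8 CPM in CD8 T cells, lower in 4 of 4 libraries.

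Single cells differed in which receptors were seen. In NK cells the share of cells with a UMI was 80% to 96.4% for Klrk1, 82.4% to 91.1% for Klre1, 72.5% to 87.5% for Klrd1 and 55.9% to 80.4% for Klrb1c over the 4 libraries. Lower shares were seen for Ncr1 (37.5% to 50%) and Klrc1 (20.6% to 37.5%). Tumor-like cells, which should carry none of these receptors and are deeper (medians of 15817.5, 16982.5, 13162 and 11639.5 UMIs), served as the background, with at most 6.25% for Klrk1 and Klra4, 3.13% for Klrd1 and 2.27% for Klre1. In the same cells the highest share was 0.862% for Klrc1, 0.602% for Klra7, 0.431% for Ncr1 and 0% for Klrb1c and Klra8. For Klra4 the 6.25% was 2 of 32 cells of shSELP 2. This background leaves out an unnamed cluster that best matched the tumor marker list, where Klra4 was seen in 15.2% of shSELP 2 cells. A median of 5 of the 9 receptors was seen per NK cell, against 3 per CD8 T cell, 1 per CD4 T cell and 0 per tumor-like cell, although NK cells are shallower than either T cell gate. With every cell thinned to 2000 UMIs the medians were 4, 2, 0 and 0. At least 5 receptors were seen in 71.6% of NK cells, 1.3% of CD8 T cells and 0.370% of CD4 T cells.

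The Ly49 genes are known for expression that varies from cell to cell within an NK population. Klra4 had a UMI in 40% to 55.9% of NK cells per library, Klra7 in 27.5% to 52.9% and Klra8 in 30% to 47.1%. Of 225 NK cells, 69 showed none of the 3, 54 showed 1, 76 showed 2 and 26 showed all 3. Klra4 alone was seen in 20 cells, Klra7 alone in 17 and Klra8 alone in 17. Pairs were seen in 28 cells for Klra4 with Klra7, 28 for Klra4 with Klra8 and 20 for Klra7 with Klra8. Any of the 3 was seen in 67.5%, 65.3%, 79.4% and 71.4% of NK cells of the 4 libraries, against 1.77% of CD8 T cells, 1.48% of CD4 T cells and 0.844% of tumor-like cells. At the depth of these cells a cell without a UMI cannot be told from a cell without the transcript.

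**Figure D2:**
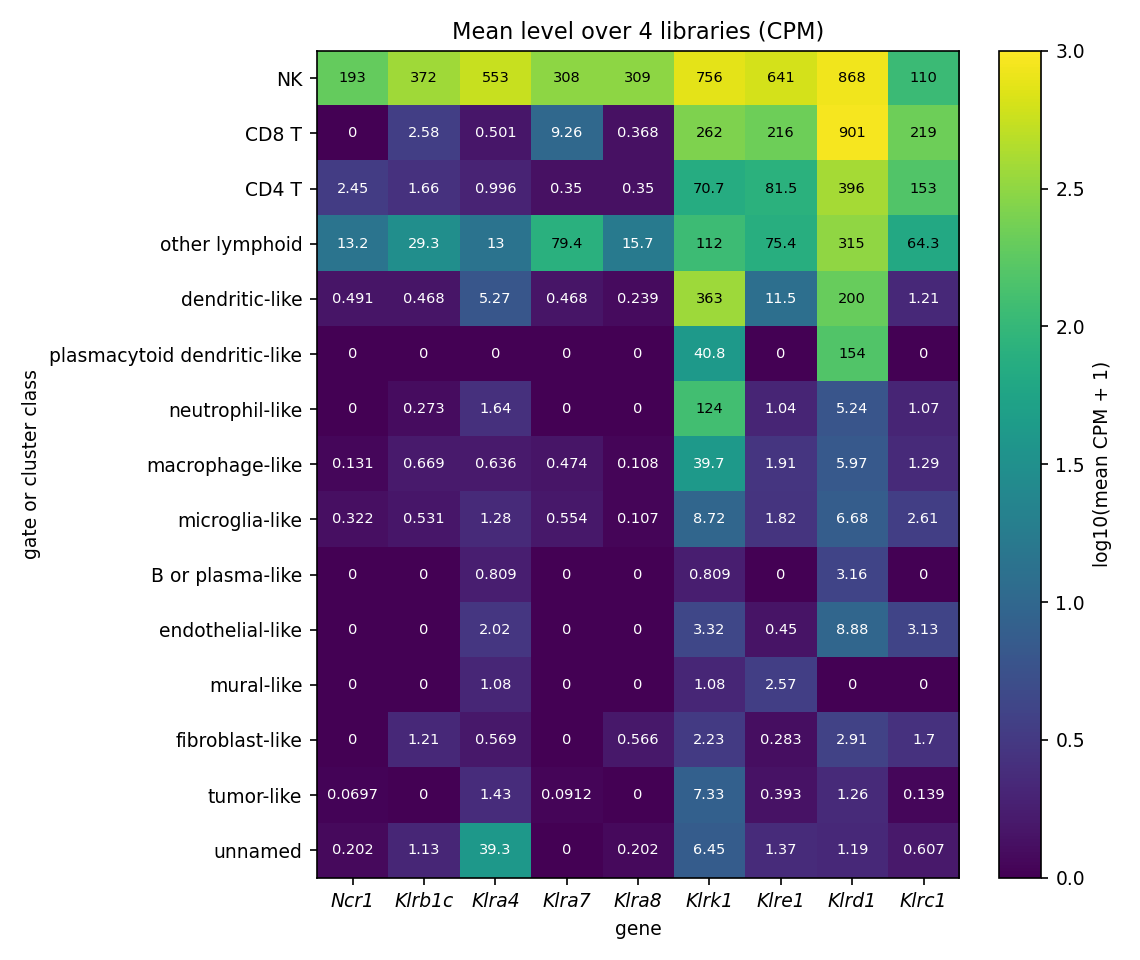
The heat map shows the mean CPM of each receptor over 4 libraries, as log10 of the mean plus 1, in the 3 gates and in the other cell classes. Klrk1 stands at 363 CPM and Klrd1 at 200.1 CPM in dendritic-like cells, and Klrb1c, Ncr1 and Klra8 are under 30 CPM everywhere outside NK cells.

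Outside the lymphocytes, Klrk1 and Klrd1 were the receptors that averaged over 100 CPM in any class. Klrk1 was measured at 398, 427, 296 and 332 CPM in dendritic-like cells, 363 ± 59.96 CPM (SD, n = 4), with a UMI in 71.3% to 78.1% of 611 cells. These values were above those of CD8 T cells in 4 of 4 libraries (276, 302, 166 and 304 CPM), although the ranges overlapped, and both classes lay under NK cells. The difference between them was not tested. Below them came neutrophil-like cells at 124 ± 19.99 CPM, other lymphoid cells at 112 ± 37.8 CPM and CD4 T cells at 70.7 ± 36.5 CPM, whose ranges overlapped. Plasmacytoid dendritic-like cells at 40.8 ± 15.9 CPM and macrophage-like cells at 39.7 ± 10.7 CPM followed and overlapped, then microglia-like cells at 8.72 ± 2.11 CPM and tumor-like cells at 7.33 ± 11.5 CPM.

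Klrd1 was measured at 206, 219, 227 and 148 CPM in dendritic-like cells and averaged 154 ± 59.9 CPM in 37 plasmacytoid dendritic-like cells, with overlapping libraries. Above these were CD4 T cells at 396 ± 100.3 CPM and other lymphoid cells at 315 ± 92.4 CPM, which also overlapped, and tumor-like cells were at 1.26 ± 1.15 CPM. With cells thinned to 2000 UMIs, Klrk1 was still seen in 40.2% to 46.6% of dendritic-like cells per library. The other 7 receptors were under 12 CPM on average in dendritic-like cells, with Klre1 at 11.5 CPM there and at 0.393 CPM in tumor-like cells. In other lymphoid cells Klra7 averaged 79.4 CPM and Klrb1c 29.3 CPM.

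Klra4 counts were also scattered over cells outside the lymphocyte gates, unevenly between libraries, an item chosen after its values were seen. Outside the 3 gates it had a UMI in 2 of 1791, 10 of 1749, 18 of 1808 and 67 of 1763 cells (0.112%, 0.572%, 0.996% and 3.80%). Both shSELP libraries were above both shNC libraries, with means of 0.342% and 2.40%, and the exact permutation test gave p = 0.333, the smallest that 2 against 2 libraries can give. Klrb1c was found in 16, 26, 7 and 22 such cells, Klra7 in 5, 15, 6 and 16, Klra8 in 4, 7, 2 and 5 and Ncr1 in 7, 7, 3 and 5, and for these 4 genes shSELP did not stand above shNC. An unnamed cluster with Cdc20, H19, Prph and Tubb3 among its leading genes held 1, 1, 5 and 23 of the Klra4 cells, with 3, 3, 7 and 87 UMIs, which put the gene at 2.43, 3.83, 18.7 and 132 CPM there, and the cluster's median depth was 8809, 2443.5, 2204 and 2011 UMIs. Macrophage-like cells held 0, 1, 4 and 18. The unnamed cluster best matched the tumor marker list, and H19 and Prph were also among the leading genes of the tumor-like cluster. Whether the Klra4 counts outside the gates come from expression in those cells was not tested.

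With the hairpin against Selp in the tumor cells, none of the 9 receptors passed the test in NK cells. edgeR called 0 of the 9, with 0 at an unadjusted p under 0.05 and 0 by DESeq2. Of the 3222 genes tested, 137 were at an unadjusted p under 0.05 and 0.031% were called. That was 1 gene, Ttr, at 67.0, 114, 2710 and 126 CPM, high in shSELP 1 alone, with a log2 change of 3.66. Without shSELP 1 the change of Ttr was 0.30. Ttr was not called by DESeq2, with RLE scaling, in the marker gate without clusters or in the largest cluster alone. With a library left out and the lone library of its group taken to vary like the other group, the count over all genes was 15 without shNC 1, 8 without shNC 2, 12 without shSELP 1 and 38 without shSELP 2, and 0 of the 9 receptors were called in each case. The median log2 change was 0.06 over the receptors and -0.01 over all genes tested.

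The receptors' own values in NK cells show how far apart the groups were. Klra7 (223 and 291 against 404 and 313 CPM) and Klrk1 (729 and 636 against 906 and 754 CPM) had both shSELP libraries above both shNC libraries, as had 20.4% of all genes tested. Their log2 changes were 0.35 (SE 0.25) and 0.23 (SE 0.21). Klrb1c and Ncr1 had both shSELP libraries below, as had 13.8% of genes, with log2 changes of -0.42 (SE 0.23) and -0.20 (SE 0.29). Over all alternatives the change of Klrb1c ran from -0.50 to -0.0018. The groups overlapped for Klra4 (0.06, SE 0.24), Klra8 (0.33, SE 0.28), Klre1 (-0.21, SE 0.21), Klrd1 (-0.17, SE 0.22) and Klrc1 (0.49, SE 0.34). Leaving out 1 library turned Klra4 (-0.13 without shNC 2 and -0.20 without shSELP 1), Klre1 (0.03 without shNC 2) and Klrd1 (0.07 without shSELP 1). It also moved Klra8 between 0.00 without shSELP 1 and 0.81 without shNC 2, Klrc1 between 0.03 without shSELP 2 and 0.67 without shSELP 1, Klra7 between 0.20 without shSELP 1 and 0.61 without shNC 2, Klrk1 between 0.12 without shSELP 1 and 0.34 without shSELP 2, and Ncr1 between -0.06 without shSELP 1 and -0.52 without shSELP 2. These sums rest on 34 to 95 NK cells per library and 2 libraries per group, and a p that misses the threshold does not show that the groups are alike.

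In CD8 T cells 5 of the 9 receptors passed the filter on low counts and Ncr1, Klrb1c, Klra4 and Klra8 did not. edgeR called 0 of the 5, with 1 (Klrc1) at an unadjusted p under 0.05 and 0 by DESeq2. Of 8197 genes, 843 were at an unadjusted p under 0.05 and 0.0244% were called. Klrc1, at 201 and 169.6 against 234 and 273 CPM, was higher in both shSELP libraries, with a log2 change of 0.49 (SE 0.15, adjusted p = 0.339). Its group order was the same in the largest CD8 T cluster alone, at 219, 201, 242 and 292 CPM, and in the cycling cluster, which held 80, 47, 17 and 31 of the CD8 T cells, at 188, 150.2, 209 and 273 CPM. It was not kept among the 28, 34, 39 and 13 CD8 T cells that lay in the NK-like cluster, at 192, 129.6, 192 and 71.4 CPM from 19, 20, 27 and 6 UMIs, where shSELP 2 was the lowest. Klrd1 lay lower in both shSELP libraries, as 23.5% of genes did, yet by -0.01 on the log2 scale (SE 0.13; 0.03 without shSELP 2 and 0.00 without shNC 1), while Klrc1 was the 1 receptor above in both, as 18.9% of genes were.

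The other 3 receptors tested in CD8 T cells had groups that overlapped. The log2 change was -0.48 for Klre1 (SE 0.22), -0.26 for Klrk1 (SE 0.23) and -1.72 for Klra7 (SE 0.80). Without the filter on low counts Klra7 was called at -1.76 (adjusted p = 0.0137, over all alternatives 0.0137 to 0.998), on the 12, 42, 1 and 11 UMIs given above. Without 1 library Klra7 ran from -0.36 without shNC 2 to -4.14 without shSELP 2, Klre1 from -0.18 without shSELP 1 to -0.86 without shSELP 2 and Klrk1 from 0.09 without shSELP 1 to -0.73 without shSELP 2. The 2 genes called in CD8 T cells were Trbc1, at 1104, 895, 388 and 451 CPM, and the granzyme gene Gzmc, at 339, 601, 65.1 and 66.8 CPM, both lower in 2 of 2 shSELP libraries, with log2 changes of -1.21 (adjusted p = 0.0290) and -2.79 (adjusted p = 0.00292). The call of Trbc1 was lost with libraries paired by number as a block (adjusted p = 0.146, the highest of its alternatives, which start at 2.18e-12). Over all genes the count was 28 without shNC 1, 210 without shNC 2, 21 without shSELP 1 and 57 without shSELP 2, with 0 of the 5 receptors each time.

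In CD4 T cells 4 receptors passed the filter, and Ncr1, Klrb1c, Klra4, Klra7 and Klra8 did not. edgeR called 0 of the 4, with 0 at an unadjusted p under 0.05 and 0 by DESeq2, where 0% of 6813 genes were called (271 at an unadjusted p under 0.05, and 0 by DESeq2). None of the 4 had groups apart, against 15.8% of genes with shSELP higher and 16.7% lower. The log2 change was 0.53 for Klrc1 (SE 0.26), -0.38 for Klrd1 (SE 0.22), -0.31 for Klrk1 (SE 0.41) and 0.04 for Klre1 (SE 0.39). Without shSELP 1, Klrc1 was called at 0.85 (adjusted p = 0.00456, over its alternatives 0.00456 to 0.9999), and it was 0.02 without shSELP 2. Without shSELP 2, Klrd1 was called at -0.85 (adjusted p = 7.45e-04, over its alternatives up to 0.9999) and Klrk1 at -1.44 (adjusted p = 0.00546, over its alternatives up to 0.9999), in the direction of the 1 shSELP library left. Klrd1 was -0.05 without shSELP 1. Klrk1 turned to 0.40 without shNC 2 and 0.12 without shSELP 1, and Klre1 to -0.48 without shNC 1 and -0.63 without shSELP 2. The count over all genes was 0 without shNC 1, 1 without shNC 2, 44 without shSELP 1 and 69 without shSELP 2, with the lone library taken to vary like the other group.

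A test of the difference in response between NK and CD8 T cells, with library as a block, called 0 of the 9 receptors, with 4 at an unadjusted p under 0.05 (Klrb1c, Klra4, Klra7 and Klra8) and 0 by DESeq2. Of 7734 genes, 251 were at an unadjusted p under 0.05, and 0.142% were called, 0.0259% higher and 0.116% lower. In CD8 T cells those 4 receptors had 19, 3, 66 and 3 UMIs in all, on which their change there rests. Receptors called numbered 2 without shNC 1 and 1 without shSELP 2, and genes called 11 with all libraries, 27 without shNC 1, 5 without shNC 2, 7 without shSELP 1 and 17 without shSELP 2. In macrophage-like cells 4 receptors passed the filter and 5 did not. There edgeR called 0 of the 4, with 2 (Klrk1 and Klrd1) at an unadjusted p under 0.05 and 0 by DESeq2. Of 10845 genes in these cells, 1714 were at an unadjusted p under 0.05, and 1.37% were called, 0.599% higher and 0.775% lower. Klrk1 was at 42.4, 51.8, 25.9 and 38.9 CPM there, with both shSELP libraries lower, an order whose share over all genes of these cells was not counted. Its log2 change was -0.42 (adjusted p = 0.301, and 0.0273 without the filter on low counts), and from -0.80 to -0.19 without 1 library. Klrd1 had a log2 change of -0.91 in macrophage-like cells (adjusted p = 0.233). Genes called there numbered 149 with all libraries, 438 without shNC 2 and 7 without shSELP 2. In tumor-like cells 0 of the 9 passed the filter, and 0.021% of 9536 genes were called, all of them higher.

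NKG2A reaches the cell surface with CD94, so the UMIs of Klrc1 were also taken per UMI of Klrd1, a ratio chosen after the values were seen and compared only between cells and libraries. In NK cells it was 0.109, 0.1, 0.151 and 0.152. In CD8 T cells it was 0.215, 0.188, 0.263 and 0.311, and in CD4 T cells 0.260, 0.302, 0.520 and 0.531. In each library NK cells had the lowest ratio and CD4 T cells the highest of the 3 gates.

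In each of the 3 gates both shSELP libraries also lay above both shNC libraries for this ratio. The means were 0.105 for shNC and 0.151 for shSELP in NK cells, 0.202 and 0.287 in CD8 T cells, and 0.281 and 0.525 in CD4 T cells. The exact permutation test gave p = 0.333 in each gate, the smallest that 2 against 2 libraries allows, so none of these differences could pass a threshold of 0.05. The gates come from the same 4 libraries and are not independent of each other. The difference kept its sign in all 12 alternatives run for each gate, between 0.0229 and 0.0632 in NK cells, 0.05 and 0.109 in CD8 T cells and 0.143 and 0.267 in CD4 T cells. With a library left out the sign could not change, because the groups were apart. The other resolutions, receptors kept in clustering and Scrublet calls left out gave nearly the same gates. The kept sign is therefore a description and no support. In NK cells the counting intervals of the libraries overlapped, from 0.0596 to 0.187 in shNC 1 and from 0.111 to 0.205 in shSELP 2. Those of shNC 1 (0.194 to 0.239) and shSELP 1 (0.232 to 0.296) in CD8 T cells overlapped too. Among cells with a UMI of Klrd1, one of Klrc1 was seen in 31.0%, 25.3%, 22.2% and 34.7% of NK cells. The shares were 72.8%, 63.2%, 71.4% and 76.6% of CD8 T cells and 60.8%, 83.1%, 55.2% and 77.0% of CD4 T cells. By this measure of cells the groups overlapped in each of the 3 gates.

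**Figure D3:**
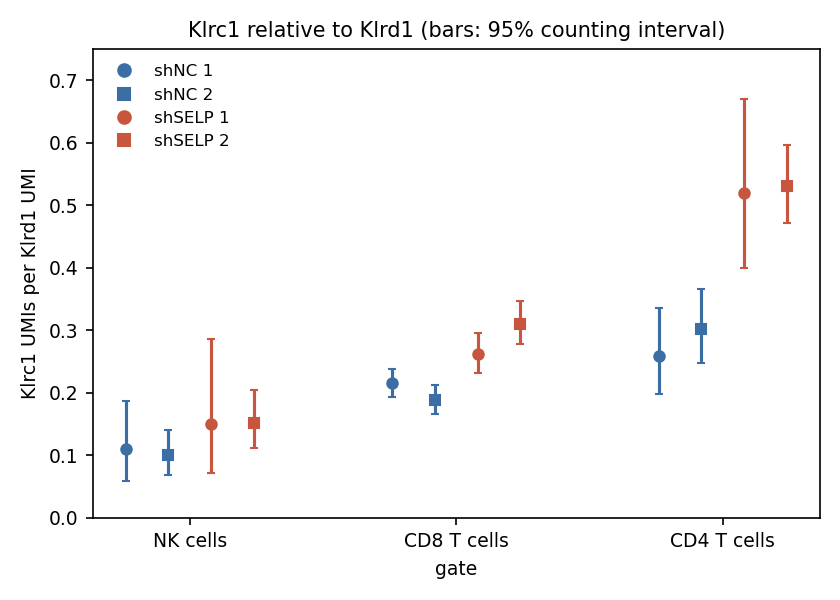
UMIs of Klrc1 per UMI of Klrd1 are plotted for each library in NK, CD8 T and CD4 T cells, with bars for the 95% counting interval. NK cells lie between 0.1 and 0.152 and CD4 T cells between 0.260 and 0.531, and in each gate the shSELP points are above the shNC points.

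The share of NK cells in the mix varied with the library as well. NK cells made up 1.83%, 4.36%, 1.55% and 2.58% of kept cells, with exact 95% intervals of 1.31% to 2.49%, 3.54% to 5.30%, 1.08% to 2.16% and 1.95% to 3.33%. shNC 2 was the highest, and the groups overlapped. The mean difference of shSELP from shNC was -1.03 percentage points (exact permutation p = 0.667) and 0.232 without shNC 2. CD8 T cells made up 11.1%, 9.91%, 11.2% and 6.72% and CD4 T cells 5.04%, 5.46%, 4.70% and 9.61%, both with overlapping groups.

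Of 22 ligands of NK cell receptors, 19 were in the counts. In tumor-like cells 12 were tested and edgeR called 0, beside 0.021% of all genes, with 0 by DESeq2. An unadjusted p under 0.05 was seen for 1 of the 12 (H2-K1), beside 745 of 9536 genes. These 12 ligands had a median log2 change of 0.42 beside -0.01 over all genes. The class I gene H2-K1, whose product Ly49 receptors read, was at 1313, 2517, 2935 and 4038 CPM there, with both shSELP libraries above (log2 change 0.75, adjusted p = 0.639). The NKG2D ligand gene Raet1e was at 29.8, 30.3, 48.7 and 38.2 CPM, also higher in both (0.45, adjusted p = 0.762). The share of all genes with groups apart was not counted in tumor-like or macrophage-like cells, so these orders only describe the values. Leaving out 1 library moved H2-K1 between 0.36 and 1.23 and Raet1e between 0.16 and 0.64. H2-T23, whose product presents peptides to CD94 and NKG2A, was at 176, 282, 203 and 458 CPM with overlapping groups. These sums rest on 232, 166, 44 and 32 tumor-like cells. In macrophage-like cells 14 ligands were tested and 1 was called, beside 1.37% of all genes (0.599% higher). Cfp, whose product properdin has been described as a ligand of NKp46, was called higher, at 150.3, 144, 195 and 233 CPM (log2 change 0.61, adjusted p = 0.0493, higher in 2 of 2 shSELP libraries). That call was lost with RLE size factors (adjusted p = 0.0501), without shNC 1 (adjusted p = 0.0565), shNC 2 (adjusted p = 0.0637) or shSELP 2 (adjusted p = 0.202), and over all alternatives its adjusted p ran from 2.35e-05 to 0.202.

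Across 40 sums of UMIs (4 libraries in 10 cell classes) the 9 receptors fell into patterns of differing breadth, given as correlations of log2 CPM over classes that share libraries and depth. Pairs among Ncr1, Klrb1c, Klra4, Klra7 and Klra8 had coefficients of 0.960 to 0.991. These genes were high in NK cells and lower on average in every other class. The NK sums therefore set their coefficients, and nothing more is read from them. Klrd1 with Klre1 gave 0.915, Klrc1 with Klre1 0.901 and Klrc1 with Klrd1 0.878, and the lowest pair was Klrc1 with Klra4 at 0.394. Among 12681 genes the one most like Ncr1 was Klrb1c (0.991), the one most like Klra8 was Klra9 (0.995) and the one most like Klra7 was Klrb1c (0.984), followed by Eomes (0.982), which the NK gate used. Klre1 was followed by Gm33104 (0.991), Prf1 (0.988), also a gate gene, and Tbx21 (0.981), whereas the genes nearest to Klrc1 were the T cell signalling genes Skap1 (0.984), Lck (0.980) and Sh2d2a (0.979). Klrd1 was nearest to Tbc1d10c (0.969) and Klrk1 to Gpr18 (0.920).

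Position groups the receptors in another way. In GRCm38 with GENCODE vM21, Ncr1 lies alone at chr7:4337724-4345164 on the plus strand, and the other 8 lie within chr6:128778485-130233322, a stretch of 1454838 bases with 36 protein-coding genes, 27 of them of the Klr or Clec families. From its start the order is Klrb1c (chr6:128778485-128789215, minus), Klre1 (chr6:129577905-129585827, plus), Klrd1 (chr6:129591782-129598775, plus), Klrk1 (chr6:129610323-129623864, minus), Klrc1 (chr6:129666015-129678973, minus), Klra4 (chr6:130043731-130067271, minus), Klra8 (chr6:130115226-130129898, minus) and Klra7 (chr6:130218605-130233322, minus). The 4 receptors at the middle of the stretch, from Klre1 to Klrc1, are the ones found at over 100 CPM on average in CD8 T cells, and the 4 at its ends averaged under 10 CPM there.

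**Figure D4:**
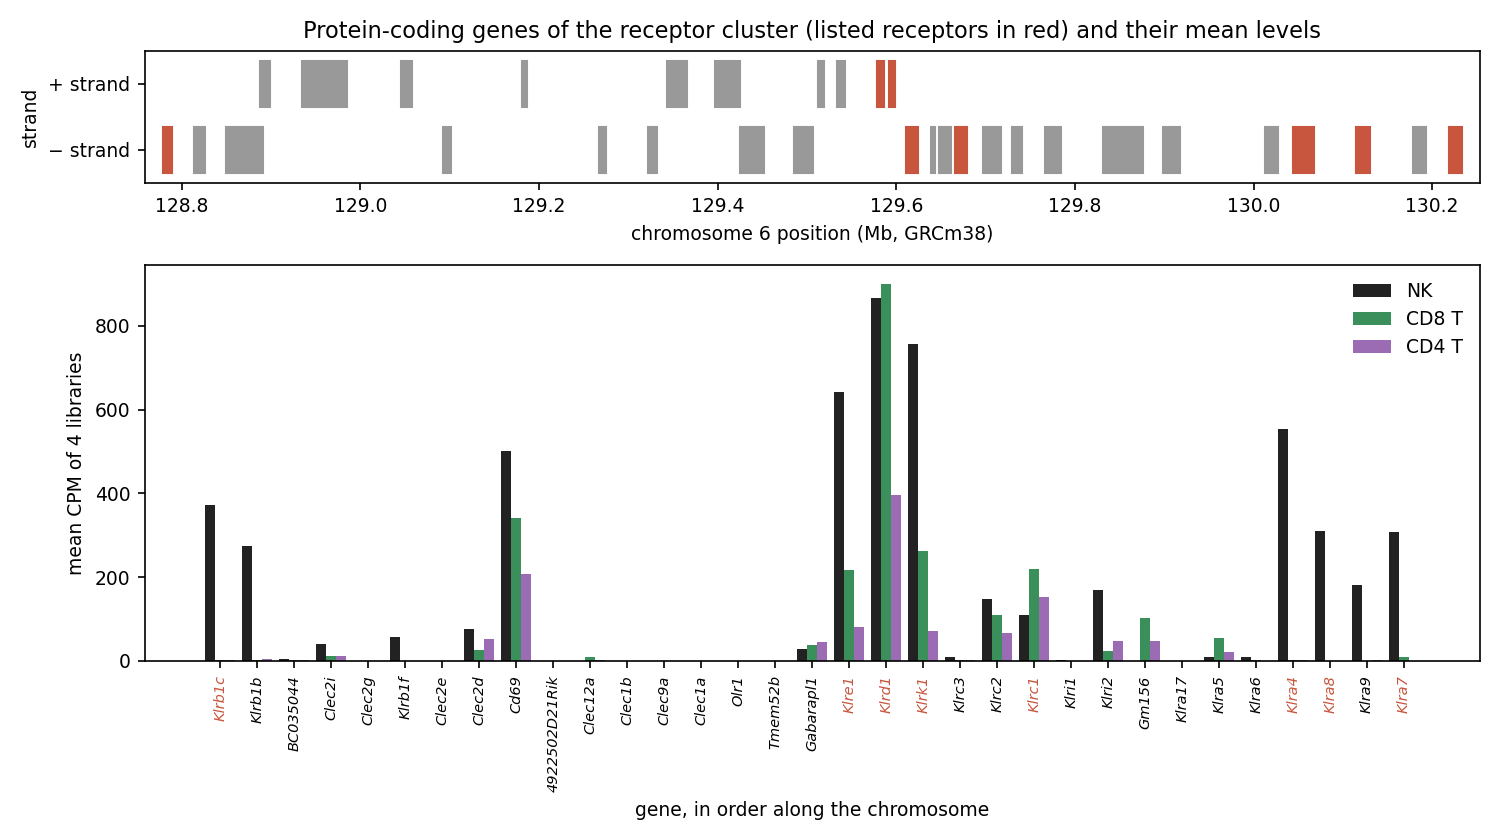
The map shows the protein-coding genes of the receptor stretch on chromosome 6 that were in the counts, by position. Bars give the mean CPM of each of these genes in NK, CD8 T and CD4 T cells, and the 8 receptors are marked in red. Klrd1 stands at 868 CPM in NK and 901 CPM in CD8 T cells, and Klra4 at 553 CPM in NK cells and 0.501 CPM in CD8 T cells.

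The starts of these genes were compared because Ncr1, Klrb1c, Klra4, Klra7 and Klra8 were all high in NK cells and lower on average in every other class. RefSeq windows of GRCm38.p6, each of 300 bases with 250 before and 50 after a gene's start, were found for 8 of the 9 receptors and not for Klrd1. RefSeq's start lies 574 bases from the GENCODE start for Klrb1c and 308 bases from it for Klre1, so these 2 windows do not flank the starts given above, and for the other 6 the starts are the same. The motif TGTGGT, the core read by RUNX factors, was searched on both strands. It was found in 5 of the 8 (Ncr1, Klrb1c, Klrk1, Klre1 and Klrc1), with 2 sites in Ncr1 and 1 in each of the others, and in 16.8% of all 32851 windows. The windows of Klra4, Klra7 and Klra8 do not hold these letters. The window of Ncr1, shown because it holds the most sites of the 8, is chr7:4337474-4337773 on the plus strand, with the sites in capitals as they read on that strand.
Ncr1: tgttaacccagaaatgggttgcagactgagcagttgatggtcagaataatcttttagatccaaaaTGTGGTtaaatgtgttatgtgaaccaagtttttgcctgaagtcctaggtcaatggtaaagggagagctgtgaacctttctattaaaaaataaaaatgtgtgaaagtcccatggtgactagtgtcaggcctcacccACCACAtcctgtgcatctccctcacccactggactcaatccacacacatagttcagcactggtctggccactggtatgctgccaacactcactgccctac

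The windows of the 3 Ly49 genes are shown because they align closely with each other. Klra4 and Klra8, the activating members, had the same base at 259 of 301 aligned positions (86.0%), Klra4 and Klra7 at 234 of 314 (74.5%) and Klra7 and Klra8 at 238 of 314 (75.8%). Set beside a receptor outside the family, Klra4 and Ncr1 had the same base at 152 of 323 positions (47.1%) and Klra4 and Klrk1 at 167 of 327 (51.1%). The longest run found in all 3, in capitals, has 14 bases and is held by 5 of the 32851 windows (0.0152%). All lie on the minus strand, at chr6:130067222-130067521 for Klra4, chr6:130233273-130233572 for Klra7 and chr6:130129849-130130148 for Klra8.
Klra4: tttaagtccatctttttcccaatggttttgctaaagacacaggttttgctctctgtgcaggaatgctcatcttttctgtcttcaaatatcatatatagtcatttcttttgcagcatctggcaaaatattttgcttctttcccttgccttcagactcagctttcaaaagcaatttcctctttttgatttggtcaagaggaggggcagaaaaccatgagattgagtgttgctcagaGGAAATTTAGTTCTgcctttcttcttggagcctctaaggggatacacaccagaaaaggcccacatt
Klra7: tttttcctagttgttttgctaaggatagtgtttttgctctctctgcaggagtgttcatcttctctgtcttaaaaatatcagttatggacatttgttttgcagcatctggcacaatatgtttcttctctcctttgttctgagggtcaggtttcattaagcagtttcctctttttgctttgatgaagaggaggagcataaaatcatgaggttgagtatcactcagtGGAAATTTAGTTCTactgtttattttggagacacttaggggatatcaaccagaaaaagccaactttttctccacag
Klra8: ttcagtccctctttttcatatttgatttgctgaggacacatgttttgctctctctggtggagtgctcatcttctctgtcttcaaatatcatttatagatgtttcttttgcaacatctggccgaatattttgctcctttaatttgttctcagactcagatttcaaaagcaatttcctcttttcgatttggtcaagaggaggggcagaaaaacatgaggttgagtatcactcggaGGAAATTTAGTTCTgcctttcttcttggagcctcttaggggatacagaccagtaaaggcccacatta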

How the data were processed

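The authors deposited raw UMI counts per gene and cell, aligned to mm10 with Cell Ranger 1.3 per the submitters' notes; per the paper, cells were filtered and equal numbers drawn per group. Columns matching no library numbered 0. The 9 receptors, the gene lists and the comparisons were chosen with earlier results of these data known.

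A cell was kept from 500 genes upward if no more than 10% of its counts were mitochondrial, and kept cells were clustered with Seurat 5.3.0 (R 4.3.3) without the 9 receptors. Clusters were named from marker lists. Scrublet (scanpy 1.11.5) called 76 cells, which were kept. In NK-like and T-like clusters, NK cells were gated as the report states. CD8 T cells had a UMI of a CD3 chain and of Cd8a or Cd8b1 and none of Cd4, and CD4 T cells the converse. The lymphoid cells in none of the gates are the other lymphoid cells.

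UMIs were summed per library and gate and tested by quasi-likelihood F test in edgeR 4.0.16 after filterByExpr and TMM scaling (Benjamini-Hochberg, threshold 0.05), with library as a block between gates, and with DESeq2 1.42.0. Calls mean an adjusted p under 0.05. Alternatives were RLE scaling, no filter, each library left out, pairing of libraries by number as a block, marker gates without clusters, a stricter gate, receptors kept in clustering, resolutions of 0.4 and 1.2, Scrublet calls left out, and cells thinned to 2000 UMIs. The largest cluster of each gate alone and the ratio of Klrc1 to Klrd1 were added after seeing the data. Intervals are exact at 95% and, like the floor of 3 UMIs, cover counting error only. Single libraries' shares were compared by two-sided exact permutation tests. Python 3.11.15, numpy 2.4.6, scipy 1.17.1, pandas 2.3.3, matplotlib 3.10.9 and limma 3.58.1 were used.

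Genes are named by a rule: the 9 receptors whatever their value; the genes of the 4 lists by counts with examples; in each direction, the 5 called genes that changed most in NK and CD8 T cells with a mean of at least 100 CPM and separate libraries; and the 3 genes most correlated with each receptor (Pearson, log2 of CPM plus 10, genes with at least 100 UMIs). Outside this rule, all genes called for the difference in response, gate-check genes, leading genes of the unnamed cluster and some neighbours of the receptors by position are named. Protein sequences were not analysed here.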

Additional observations from a re-analysis of the deposited data

Results flagged for a closer look

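Responses to shSELP that differed between NK and CD8 T cells by a test of the difference were found for 11 genes, none of them among the 9 receptors. Fhl2 and Spp1 were higher in the NK response, and Pag1, Klri2, Lockd, Ifitm2, Ifitm1, Rgcc, Top2a, Hist1h1b and Hspa1a lower. Klri2, whose product pairs with that of Klre1, had a difference in log2 response of -2.13 (SE 0.46, adjusted p = 0.00772). It was at 179, 177, 179 and 140.4 CPM in NK cells and at 15.0, 5.6, 31.2 and 36.8 CPM in CD8 T cells. In CD8 T cells both shSELP libraries were above both shNC libraries, as for 18.9% of all genes tested there. The call was lost with DESeq2 (adjusted p = 0.9999), without shNC 2 (-1.53, adjusted p = 0.768), without shSELP 2 (-1.94, adjusted p = 0.258), with cells thinned (-0.80, adjusted p = 0.993), in the largest cluster of each gate (-1.52, adjusted p = 0.826) and in the stricter gate (-1.54, adjusted p = 1), and over its alternatives the adjusted p ran from 4.06e-04 to 1.

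In the separate experiment on CD11b+ cells, which no comparison above uses, 3 of the receptors with more than 3 UMIs were counted above the shNC library in the shSELP library. Klrb1c was at 1.05 CPM against 0.475, Klre1 at 1.14 CPM against 0.792 and Klrd1, nearly equal, at 8.74 CPM against 8.63. Klrk1, with the most UMIs of the 8 receptors listed, was lower, at 27.9 CPM against 39.4, as were Klrc1 and Klra8. Klra4, with 0 and 3 UMIs, and Klra7, with 0 and 2, were also above but rest on 3 UMIs or fewer. The group of these libraries was taken from titles, source names and genotypes, while in 7 of the shSELP entries a line of the description gives the control hairpin, so each direction depends on the other labels. There was 1 library per group, so the differences were not tested.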

How the results depend on the processing

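Of 1448 values recomputed under the alternatives, 1256 kept their direction and side of the threshold or their size, 30 lost a call, 9 gained one, 122 moved and 31 changed sign; causes were not tested. The 4 receptors called between CD8 and CD4 T cells and the 8 between NK and CD8 T cells were called in every alternative. Among the 8, Ncr1, Klrb1c, Klra4, Klra7 and Klra8 passed the filter through NK cells and had to differ, so their kept calls support nothing. Several alternatives, such as the other resolutions and Scrublet calls left out, also gave nearly the same gates. Genes called in NK cells (1) were 0 with DESeq2, 0 with RLE, 18 without the filter, 11 in the marker gate, 0 in the stricter gate (7, 13, 8 and 3 cells), 4 thinned, 0 in the largest cluster and 8 to 38 without 1 library. In CD8 T cells (2) they were 14 with DESeq2, 219 without the filter, 9 in the marker gate, 9 thinned, 17 in the largest cluster and 21 to 210 without 1 library. In CD4 T cells (0) they were 46 without the filter, 1 in the marker gate, 2 with receptors kept in clustering, 1 at resolution 1.2, 1 thinned and 0 to 69 without 1 library. Pairing libraries by number as a block gave 11 in NK, 3 in CD8 T and 6 in CD4 T cells. Correlations of same-number libraries were 0.142, -0.0964 and 0.125 in the gates, none under -0.1, so no crossed pairing was run. Receptors called were 2 in CD8 T cells without the filter (Klrb1c and Klra7), 0 to 2 in CD4 T cells and 0 to 2 for the difference in response without 1 library, and 2 for the latter in the marker gate. The genes called, NK cells against CD8 T cells (1350), became 882 with DESeq2, 297 in the stricter gate and 674 thinned, and between CD8 and CD4 T cells 1240 became 641, 556 thinned and 697 to 1413 without 1 library. The difference in response (11) gave 0 with DESeq2, 7 with RLE, 80 in the marker gate, 1 in the stricter gate, 4 with receptors kept in clustering, 5 without Scrublet calls, 3 thinned, 5 in the largest cluster and 5 to 27 without 1 library. Macrophage-like cells (149) gave 862 without the filter and 7 to 438 without 1 library, and tumor-like cells (2) gave 10 with DESeq2, 148 without the filter and 0 to 103 without 1 library. These changes of sign were seen, none in a value that passed the test. In NK cells, Ncr1 was 0.41 and Klrd1 0.016 thinned, Klrk1 -0.43 and Klrd1 0.17 in the stricter gate, Klrd1 0.17 in the marker gate and Klra4 -0.030 in the largest cluster; without 1 library Klra4 ran from -0.20 to 0.37, Klre1 from -0.37 to 0.029 and Klrd1 from -0.55 to 0.069. In CD8 T cells Klrd1 was 0.046 thinned and ran from -0.046 to 0.035 without 1 library, and Klrk1 from -0.73 to 0.091. In CD4 T cells Klre1 was -0.0037 with DESeq2, -0.0016 with the block, -0.20 in the largest cluster and -0.63 to 1.0 without 1 library, and Klrk1 -1.44 to 0.40. Between NK and CD8 T cells Klrd1 ran from -0.12 to 0.11 without 1 library (and, with the same sign as before, was -0.65 in the stricter gate), and Hcst was -0.0078 without the filter, -0.032 in the marker gate, -0.37 in the stricter gate, -0.0058 thinned, -0.18 in the largest cluster and -0.059 to 0.28 without 1 library. Differences in share of cells without 1 library ran from -2.30 to 0.232 for NK, -3.78 to 0.688 for CD8 T and -0.547 to 4.36 for CD4 T cells. Of the 3 gates, NK cells are the shallowest, and 3 UMIs there stand for 6.81 to 26.9 CPM.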

Other observations

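The CD11b+ experiment, collected on day 21 by the labels and day 17 by the paper's methods, holds 1 library per group, so its values stand without a test, and which library is shSELP rests on labels that 1 line of the description contradicts. Of the 9 receptors 8 are listed among its 14363 genes, and Ncr1 is absent. The shNC library has 12628177 UMIs and the shSELP library 11445676. Klrk1 was the receptor with the most UMIs there, with 498 in the shNC and 319 in the shSELP library, or 39.4 and 27.9 CPM, and was seen in 357 and 245 of 2862 cells each. Klrd1 had 109 and 100 UMIs, Klre1 10 and 13 and Klrb1c 6 and 12. Klrc1 had 7 and 4 UMIs, Klra8 5 and 1, Klra4 0 and 3 and Klra7 0 and 2.

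In the whole-tumor mix the macrophage-like cells, which also carry CD11b, gave 42.4, 51.8, 25.9 and 38.9 CPM of Klrk1.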
